A study of Mus musculus with 4 samples.

Results

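The genes described here are those of globin and heme synthesis in mouse lung: the adult alpha globins Hba-a1 and Hba-a2, the adult beta globins Hbb-bs, Hbb-bt, Hbb-b1 and Hbb-b2, the heme enzymes Alas2 and Fech, and the alpha globin chaperone Ahsp. They were chosen by symbol from the 23282 rows of each lung library. Of the 9 symbols, 8 had a row in all 4 libraries, and Ahsp was not analysed here. All 8 passed the filter on low values (a mean normalized read count of at least 4), as did 15164 rows in all. Lung mRNA of male CDF1 mice was sequenced in 4 libraries, 1 for each of 4 groups. Normal control mice, E(-)T(-), neither ran nor received tumor cells, and normal exercise mice, E(+)T(-), ran on a treadmill at high intensity. Cancer control mice, E(-)T(+), received CT26 murine colorectal carcinoma cells through the tail vein and did not run, and cancer exercise mice, E(+)T(+), received the cells and ran. The labels put the mice at postnatal day 28 and 10 in each group. The methods give a similar age at purchase, before training, and place the killing at the end of the experiment. By that account the age at sampling was higher than the labelled one. The results text of the study describes muscle as taken from a representative mouse of each group and the lungs as examined in a similar way. The lung libraries may thus be of single mice too, though this is not said of the lungs directly. All mice were killed by exsanguination under anesthesia, and how much blood each lung still held is not given. No difference below has a replicate check, and intervals cover counting error only.

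Adult hemoglobin is built from alpha and beta globin chains, each of which carries a heme. Erythroid precursors make both chains while they mature, and reticulocytes, the youngest red cells in blood, still hold globin mRNA. Heme synthesis starts and ends in the mitochondrion. Alas2 encodes the erythroid enzyme of the first step, and Fech encodes ferrochelatase, which inserts iron into protoporphyrin in erythroid and other cells. In bulk lung RNA these transcripts can come from blood in the vessels as well as from any erythroid cell in the tissue, and fewer cells of a type and less RNA per cell cannot be told apart.

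The libraries held 9354547 to 13368011 assigned reads, recovered from the deposited values, with the cancer control the shallowest. A count of 0 in a library allows up to 3 reads. All 9 alveolar epithelium markers, all 4 airway secretory markers and all 7 endothelium markers had reads in each library, as the labelled tissue should.

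The sequences just upstream of 4 of these genes are shown because the globin genes and Alas2 moved together across the libraries, and these stretches hold the short motifs for which erythroid promoters are known. Each covers the 250 bases before the RefSeq transcript start in GRCm38.p6, on the strand of the gene. The Hbb-bs and Hbb-bt windows are those of the reference strain. The parents of CDF1 mice carry the beta genes named Hbb-b1 and Hbb-b2, whose windows are not shown. Capitals mark 3 motifs on either strand. These are GATAA, the core bound by GATA factors (TTATC when read on the other strand), CACCC, the box bound by Klf1 and its relatives (GGGTG on the other strand), and the CCAAT box of many promoters (ATTGG on the other strand).
Hba-a1 (chr11:32283422-32283671, + strand): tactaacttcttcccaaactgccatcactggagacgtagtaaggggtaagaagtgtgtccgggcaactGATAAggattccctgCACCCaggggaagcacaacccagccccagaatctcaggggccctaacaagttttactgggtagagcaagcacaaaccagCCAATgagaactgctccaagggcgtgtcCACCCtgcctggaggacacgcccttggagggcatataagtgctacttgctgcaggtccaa
Hbb-bs (chr7:103827929-103828178, - strand): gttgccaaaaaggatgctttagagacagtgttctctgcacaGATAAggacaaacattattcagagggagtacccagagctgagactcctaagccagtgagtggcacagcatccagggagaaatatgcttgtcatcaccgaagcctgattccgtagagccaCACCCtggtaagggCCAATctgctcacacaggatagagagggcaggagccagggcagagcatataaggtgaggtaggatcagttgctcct
Hbb-bt (chr7:103813924-103814173, - strand): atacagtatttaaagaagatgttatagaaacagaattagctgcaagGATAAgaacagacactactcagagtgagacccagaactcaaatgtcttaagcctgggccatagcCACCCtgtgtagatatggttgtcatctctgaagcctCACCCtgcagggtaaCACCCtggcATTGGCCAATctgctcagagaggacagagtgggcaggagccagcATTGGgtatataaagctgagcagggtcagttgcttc
Alas2 (chrX:150547167-150547416, + strand): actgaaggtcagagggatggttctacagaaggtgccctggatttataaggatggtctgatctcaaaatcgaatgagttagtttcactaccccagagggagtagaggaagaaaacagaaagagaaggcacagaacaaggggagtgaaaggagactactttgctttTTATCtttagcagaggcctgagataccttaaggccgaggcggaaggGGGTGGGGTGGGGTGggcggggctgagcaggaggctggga

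Each of the 4 windows held 1 GATAA match and at least 1 CACCC match. The 3 globin windows also held CCAAT, at -88 from the start in Hba-a1, -76 in Hbb-bs and -80, -75 and -36 in Hbb-bt, where the matches at -80 and -75 abut on opposite strands. No CCAAT was present in the Alas2 window, where GGGTG was repeated at -40, -35 and -30. The window of Hba-a2 (chr11:32296242-32296491) shared an unbroken run of 247 bases with that of Hba-a1, whereas the longest run shared by the Hbb-bs and Hbb-bt windows was 14 bases. Among 32851 RefSeq windows of the same length, GATAA was present in 22.6%, CACCC in 52.0%, CCAAT in 33.8%, and GATAA together with CACCC in 10.1%. A match describes the letters and is neither a bound site nor a cause.

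Hba-a1 (gene body chr11:32283672-32284486) was the most abundant of the 8 rows. Its log2 value was 19.80 in the normal control, 19.79 in the normal exercise library, 16.37 in the cancer control and 21.35 in the cancer exercise library, which corresponded to 1070497, 984108, 77080 and 2283162 reads. The libraries without tumor were nearly level, the cancer control was far below them, and the cancer exercise library was above them. Hba-a1 was 10.8-fold lower in the cancer control than in the normal control, a log2 difference of -3.43 with an exact interval of -3.44 to -3.42. In the cancer exercise library it was 31.6-fold higher than in the cancer control (4.98, exact interval 4.97 to 4.99) and 2.95-fold higher than in the normal exercise library (1.56, exact interval 1.56 to 1.57).

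Hba-a2 (chr11:32296492-32297310), the neighbouring alpha gene, had log2 values of 15.12 in the normal control, 14.97 in the normal exercise library, 12.04 in the cancer control and 16.19 in the cancer exercise library. The order of the libraries was that of Hba-a1, and the differences that involve a library with tumor were smaller. It was 8.43-fold lower in the cancer control than in the normal control (-3.08, exact interval -3.12 to -3.03) and 17.7-fold higher in the cancer exercise library than in the cancer control (4.15, exact interval 4.10 to 4.19). Hba-a1 had 25.5 reads per Hba-a2 read in the normal control, 28.1 in the normal exercise library, 19.99 in the cancer control and 35.7 in the cancer exercise library. The ratio was lowest in the cancer control and highest in the cancer exercise library, and their exact intervals were 19.4 to 20.7 and 35.4 to 36.0. The alpha transcripts share much sequence: of the 75-base windows of Hba-a1, 62.2% also occur in Hba-a2, and 81.0% of those of Hba-a2 occur in Hba-a1. In the last 300 bases, where this library type places its reads, the shares were 66.8% and 59.7%. The division of reads between them, and so this ratio, is uncertain.

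Hbb-bs (chr7:103826523-103827928), the major adult beta gene of the reference strain, had log2 values of 17.89 in the normal control, 18.10 in the normal exercise library, 14.50 in the cancer control and 19.62 in the cancer exercise library. It was 10.5-fold lower in the cancer control than in the normal control (-3.39, exact interval -3.41 to -3.37), 34.9-fold higher in the cancer exercise library than in the cancer control (5.13, exact interval 5.11 to 5.14) and 2.87-fold higher in the cancer exercise library than in the normal exercise library. Again the cancer control was lowest and the cancer exercise library highest. Hbb-bt (chr7:103812524-103813923), its neighbour, had log2 values of 16.36, 16.45, 12.70 and 18.14 in the normal control, the normal exercise library, the cancer control and the cancer exercise library. Its differences in the comparisons with a tumor library were larger than those of Hbb-bs, at -3.66 (exact interval -3.70 to -3.62) in the cancer control over the normal control and 5.44 (exact interval 5.40 to 5.47) in the cancer exercise library over the cancer control. In the last 300 bases 29.6% of the 75-base windows of Hbb-bs occur in Hbb-bt, and 29.2% of those of Hbb-bt in Hbb-bs. Hbb-bs had 2.88, 3.14, 3.47 and 2.80 reads per Hbb-bt read in the normal control, the normal exercise library, the cancer control and the cancer exercise library. Both rows are named for genes of the reference strain, so this ratio may not be that of the beta genes these mice carry.

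Hbb-b1 and Hbb-b2 name the beta genes of the other common mouse haplotype (Hbb-d), which the BALB/c and DBA/2 parents of CDF1 mice carry, whereas the mm10 reference strain carries Hbb-bs and Hbb-bt. Hbb-b1 had log2 values of 17.85 in the normal control, 18.06 in the normal exercise library, 14.44 in the cancer control and 19.60 in the cancer exercise library. Those of Hbb-b2 were 16.24, 16.34, 12.49 and 18.08. Both rows stayed close under Hbb-bs and Hbb-bt in every library. Hbb-bs exceeded Hbb-b1 by 8196, 6907, 788 and 9024 reads in the normal control, the normal exercise library, the cancer control and the cancer exercise library, and Hbb-bt exceeded Hbb-b2 by 8163, 6769, 816 and 8723 reads. The excess was thus nearly the same for both pairs in each library. Whether the same reads entered both rows of a pair cannot be told from the values, so shares are also given without Hbb-b1 and Hbb-b2.

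**Figure D1:**
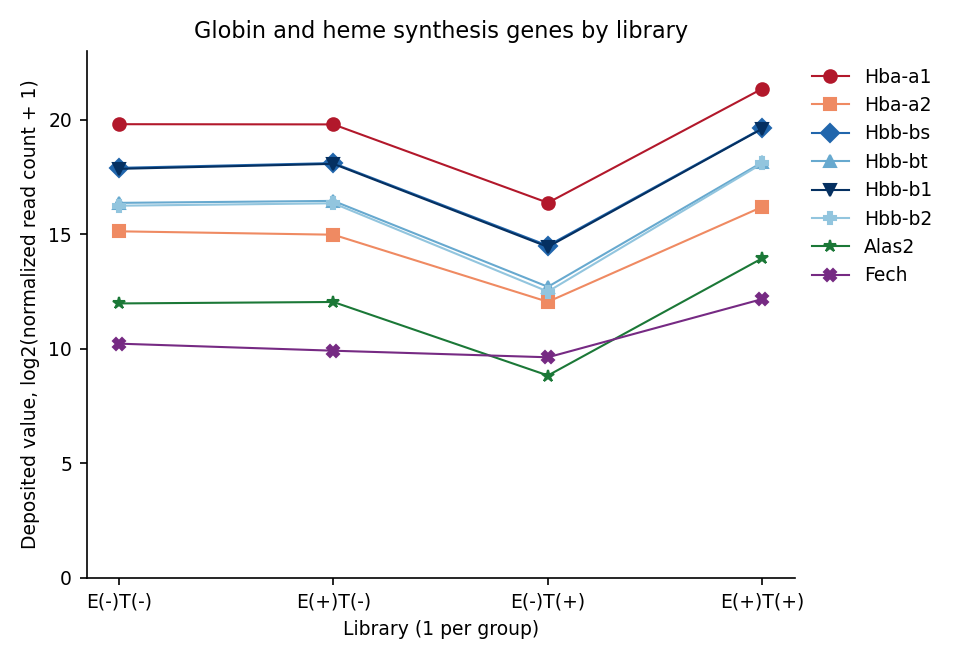
Deposited log2(normalized read count + 1) of the 8 globin and heme synthesis rows (y axis) in the 4 libraries (x axis, 1 library per group), 1 line and marker for each gene. The globin rows and Alas2 are lowest in E(-)T(+) and highest in E(+)T(+), while Fech stays between 9.62 and 10.22 in 3 libraries and reaches 12.17 in E(+)T(+).

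The alpha rows held 8.55% of all assigned reads in the normal control, 7.97% in the normal exercise library, 0.865% in the cancer control and 17.6% in the cancer exercise library. Hbb-bs and Hbb-bt held 2.96%, 3.15%, 0.290% and 7.002%, and Hbb-b1 and Hbb-b2 held 2.83%, 3.04%, 0.273% and 6.87% in the same order. Hba-a1 alone took 17.1% of the reads of the cancer exercise library (95% Wilson interval 17.06 to 17.10). Without Hbb-b1 and Hbb-b2, an alternative chosen after seeing the data, the 4 remaining hemoglobin symbols held 11.8%, 11.5%, 1.16% and 26.4%. The alpha rows had 2.89 reads for each read of Hbb-bs and Hbb-bt in the normal control, 2.53 in the normal exercise library, 2.98 in the cancer control and 2.51 in the cancer exercise library. Both libraries without exercise had the higher alpha to beta ratio, and the exact intervals of these (2.88 to 2.90 and 2.94 to 3.02) did not meet those of the exercised libraries (2.52 to 2.54 and 2.501 to 2.513). With 1 library per group, whether exercise is linked to this ratio was not tested.

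**Figure D2:**
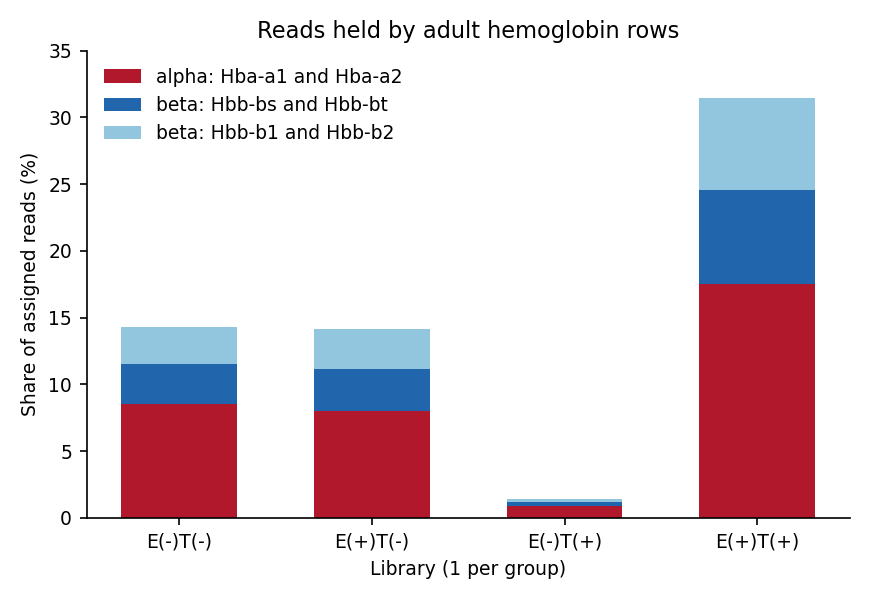
Share of assigned reads (percent, y axis) held by the adult hemoglobin rows in each library (x axis, 1 library per group), with alpha rows and both pairs of beta rows stacked from 0. The alpha rows run from 0.865% in E(-)T(+) up to 17.6% in E(+)T(+).

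Alas2 (chrX:150547417-150570622), the erythroid enzyme of the first step of heme synthesis, had log2 values of 11.97 in the normal control, 12.04 in the normal exercise library, 8.83 in the cancer control and 13.95 in the cancer exercise library, from 4733, 4574, 414 and 13536 reads. The libraries without tumor were level, the cancer control was lowest and the cancer exercise library highest, as for the globins. Alas2 was 8.85-fold lower in the cancer control than in the normal control, with an exact interval of -3.30 to -3.00 (log2). In the cancer exercise library it was 34.8-fold higher than in the cancer control (5.12, exact interval 4.98 to 5.27) and 3.77-fold higher than in the normal exercise library (1.91, exact interval 1.86 to 1.96). Apex2 overlaps this gene on the other strand, and whether the counting used strand is not stated.

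Fech, which completes heme and is used by all cells that make it, had the same lowest and highest libraries as the globins, with a smaller difference in the cancer control. Its log2 value was 10.22 in the normal control, 9.91 in the normal exercise library, 9.62 in the cancer control and 12.17 in the cancer exercise library, from 1401, 1047, 719 and 3933 reads. Only the cancer exercise library stood apart, and the other 3 lay within a 2-fold range. Fech was 1.51-fold lower in the cancer control than in the normal control, which did not reach the 2-fold limit, with an exact interval of -0.73 to -0.46 (log2). It was 5.83-fold higher in the cancer exercise library than in the cancer control (2.54, exact interval 2.43 to 2.66) and 4.78-fold higher than in the normal exercise library (2.26, exact interval 2.16 to 2.36). The distance of the centred Fech profile from the mean profile of the 8 rows was 2.20 log2 units over the 4 libraries, against 0.264 for Alas2 and 0.667 for Hbb-b2, the nearest and farthest of the other rows.

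Set against Hba-a1 in the same library, where the scaling between libraries cancels, Alas2 varied less than the other genes given here. Its exact intervals in the normal control (4.30 to 4.55) and the cancer exercise library (5.83 to 6.03) still did not meet. Alas2 had 4.42 reads per 1000 Hba-a1 reads in the normal control, 4.65 in the normal exercise library, 5.37 in the cancer control and 5.93 in the cancer exercise library. Fech had 1.31, 1.06, 9.33 and 1.72 in the same order, and Slc25a37, the mitochondrial iron importer mitoferrin-1, had 1.22, 1.47, 8.32 and 2.10. Both were high relative to Hba-a1 in the cancer control only, with exact intervals there of 8.66 to 10.04 and 7.68 to 8.99. Bpgm, the red cell enzyme that makes 2,3-bisphosphoglycerate, had 1.19, 1.12, 2.01 and 1.68. Slc4a1, the band 3 anion exchanger of the red cell membrane, had 0.165, 0.115, 0.221 and 1.02, so that it stood out in the cancer exercise library. Slc25a37, Bpgm and Slc4a1 were set against Hba-a1 after their values were seen.

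**Figure D3:**
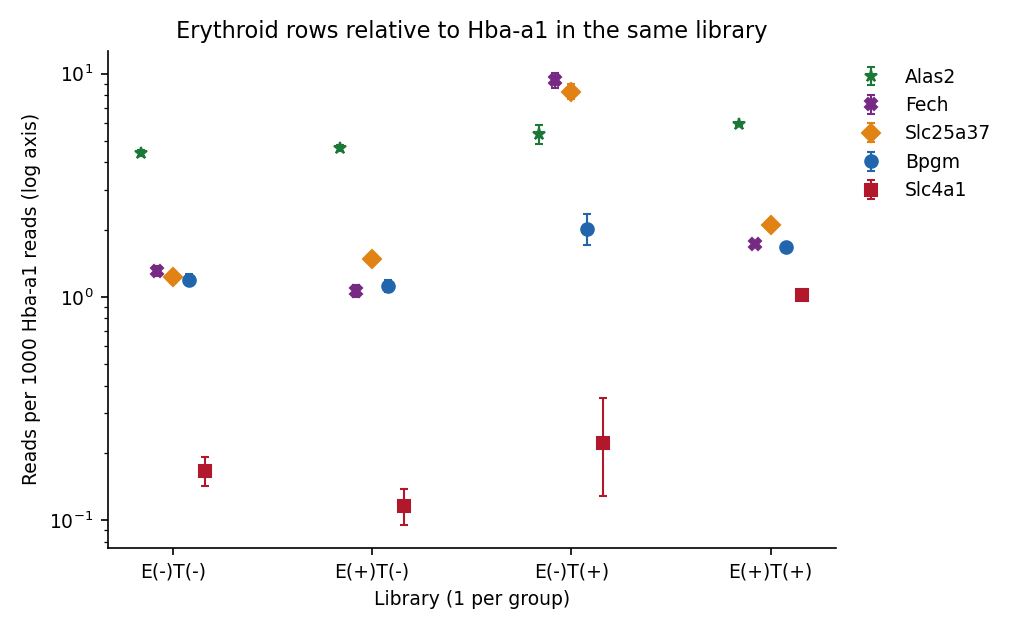
Reads of Alas2, Fech, Slc25a37, Bpgm and Slc4a1 per 1000 Hba-a1 reads (log axis) in each library (x axis, 1 library per group), with 95% exact intervals that cover counting error only. Fech and Slc25a37 reach 9.33 and 8.32 in E(-)T(+), and Slc4a1 reaches 1.02 in E(+)T(+).

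The effect of exercise without tumor, the normal exercise library over the normal control, was small for these genes. None of the 8 passed the 2-fold limit, in a comparison where 9.98% of all tested rows did in either direction. Differences ran from -0.31 (Fech) to 0.22 (Hbb-b1), with a median of 0.07 beside 0.00 for all tested rows. Hbb-bs and Hbb-b1 were the highest rows, at 0.21 and 0.22, and Hba-a1 had a difference of -0.01.

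The tumor effect without exercise, the cancer control over the normal control, was a fall of all 6 globin rows and Alas2. These 7 of 8 rows were past the limit, all lower, where 25.7% of all tested rows were lower past it and 20.6% higher. Their differences ran from -3.75 (Hbb-b2) to -3.08 (Hba-a2), and with Fech the median was -3.40 beside -0.03 for all tested rows. Of the 15164 tested rows, 375 were lower than Hbb-b2 in this comparison.

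The effect of exercise in cancer-bearing mice, the cancer exercise library over the cancer control, went the other way. All 8 rows were higher past the limit, where 24.3% of all tested rows were higher past it and 17.7% lower. Differences ran from 2.54 (Fech) to 5.59 (Hbb-b2), with a median of 5.12 beside 0.01 for all tested rows. Only 23 tested rows had a larger difference than Hbb-b2, and 980 had a larger one than Fech. This comparison shares the cancer control with the tumor effect without exercise, so a low value in that library enters both.

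The tumor effect with exercise, the cancer exercise library over the normal exercise library, does not use that library. All 8 rows were higher past the limit, beside 14.9% of all tested rows higher and 13.0% lower. Differences ran from 1.22 (Hba-a2) to 2.26 (Fech), with a median of 1.62 beside -0.00 for all tested rows. Under scaling to library totals the differences ran from 0.81 (Hba-a2, short of the limit) to 1.84 (Fech), and 7 rows were past the limit. Lower with tumor at rest and higher with tumor under exercise, both past the limit, were 7 of the 8 rows, beside 1.93% of all tested rows. Under library totals Hba-a2 was no longer among them. In the cancer exercise library over the normal control, all 8 rows were higher past the limit, beside 14.8% of all tested rows, with differences of 1.07 (Hba-a2) to 1.98 (Alas2). Fech was 3.86-fold higher there, close to Alas2 at 3.93-fold and ahead of the globins.

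**Figure D4:**
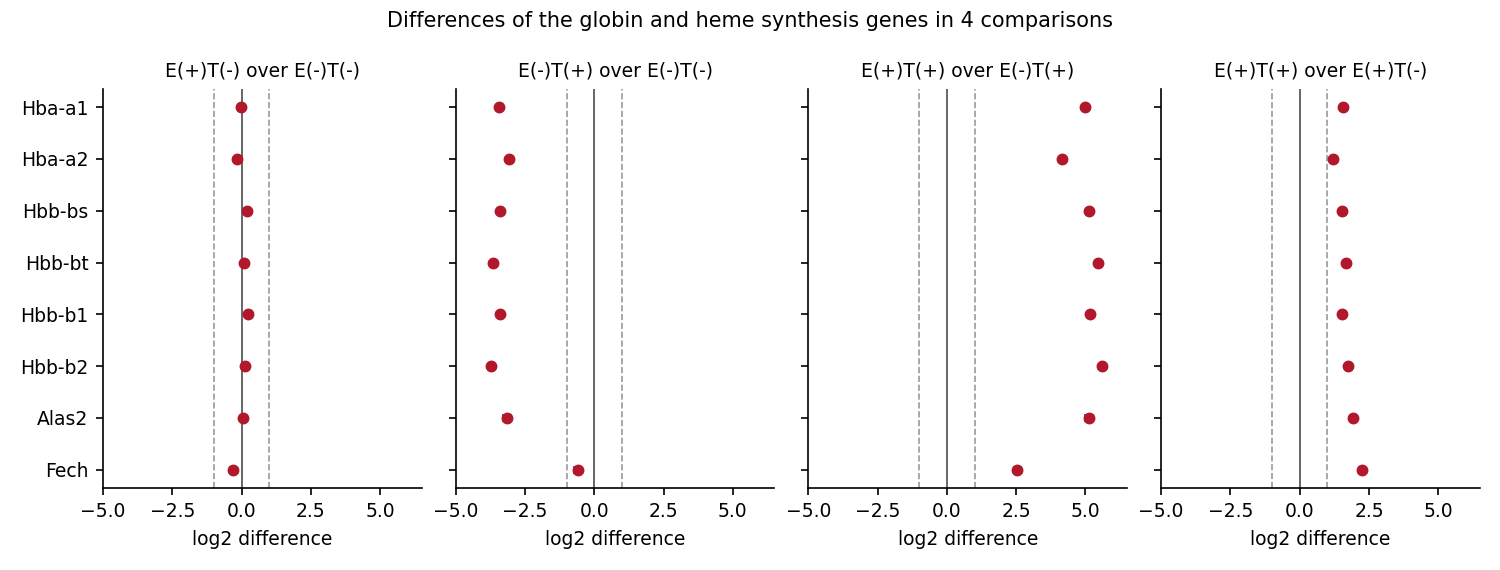
Log2 differences (x axis) of the 8 rows (y axis) in 4 comparisons, 1 library against 1 library. Dashed lines mark the 2-fold limit, and the 95% exact intervals of the read ratios are mostly narrower than the points. Globin rows and Alas2 lie between -3.75 and -3.08 in E(-)T(+) over E(-)T(-), with Fech apart at -0.59, and all rows lie right of the limit in both panels that have E(+)T(+) on top.

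Other globins were counted next. Of 9 genes, 5 passed the filter: Hbq1a and Hbq1b (theta globins), Mb (myoglobin), Cygb (cytoglobin) and Ngb (neuroglobin). In the tumor effect without exercise 4 of 5 were lower past the limit (median -2.35), and in the effect of exercise with tumor 4 of 5 were higher (median 2.001). Hbq1b had 45 reads in the normal control, 27 in the normal exercise library, 6 in the cancer control and 379 in the cancer exercise library, the same order of libraries as Hba-a1. Hbq1a had 40, 36, 0 and 44 reads, so that it was at least 15.6-fold higher in the cancer exercise library than in the cancer control against a floor of 3 reads in the cancer control, but 0.62 higher (log2) than in the normal exercise library. Cygb, found in fibroblast-like cells, had differences of -1.11 and 1.77 in these comparisons, and Mb had -0.67 and 0.38. In the tumor effect with exercise 1 of 5 was higher, and without tumor exercise left 1 of 5 lower, Ngb, at -1.001. Of all tested rows 25.7% were lower with tumor at rest, 24.3% higher with exercise in tumor-bearing mice and 14.9% higher in the tumor effect with exercise, and 9.98% passed in either direction in the effect of exercise without tumor, so a count of 1 of 5 is within 1 gene of these shares. The Ngb call was lost, with 0 of 5 past the limit, under median-of-ratios scaling and with a pseudocount of 4. Scaled by library totals, 2 of 5 passed in either direction in the tumor effect with exercise, with a median of 0.22 in place of 0.62. The median of the effect of exercise with tumor was then 1.48. The embryonic genes Hba-x, Hbb-y, Hbb-bh1 and Hbb-bh2 did not pass the filter, and Hbb-bh2 had 0 reads in every library.

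The 7 other enzymes of heme synthesis had smaller differences than Alas2. With tumor at rest 2 of 7 were lower past the limit, in the effect of exercise with tumor 3 of 7 were higher, in the tumor effect with exercise 2 of 7 were higher, and in the effect of exercise without tumor none passed. Their medians were -0.32, 0.81, 0.08 and 0.18. Of all tested rows 25.7% were lower in the first of these comparisons, 24.3% higher in the second and 14.9% higher in the third. The 2 of 7 lower in the first were near the share of all rows, and in the last 9.98% of all rows passed in either direction. In the first, 1 of 7 was past the limit both with scaling by library totals alone and with median-of-ratios scaling. Under library totals 0 of 7 passed in the second, and the median of the second was 0.20 and that of the third -0.33. Alas1, the first-step enzyme of all other tissues, had differences of -1.20 (2316 to 784 reads), 1.31 and -0.38 in the first 3 of these. Alad, the second enzyme, had -1.04, 1.03 and 0.34. Urod, a later enzyme, had 0.41, 1.09 and 1.32, and Cpox, the mitochondrial enzyme after it, had 0.29, -0.29 and 0.08. Alas1 was thus lower with tumor at rest like Alas2, but was below the normal exercise library in the cancer exercise library, where Alas2 was 1.91 above it.

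Genes of heme and iron supply (uptake of iron, its import into mitochondria, and porphyrin transport) had 19 of 20 members tested. Tumor without exercise left 1 higher and 4 lower (median -0.31), in the effect of exercise with tumor 5 were higher and 1 lower (median 0.46), in the tumor effect with exercise 4 were higher and 1 lower (median 0.48), and exercise without tumor left all 19 within the limit (median -0.12). These counts stand beside 20.6% of all tested rows higher and 25.7% lower in the first comparison, 24.3% and 17.7% in the second and 14.9% and 13.0% in the third, and the 4 lower in the first and the 5 higher in the second were near those shares. In the effect of exercise without tumor 9.98% of all tested rows passed in either direction. Scaled by library totals, the median of the effect of exercise with tumor turned to -0.15, and 3 rather than 5 genes passed in the tumor effect with exercise. The 4 that were lower with tumor at rest include Tspo2, with 0 against 5 reads, which against a floor of 3 reads was at least 1.29-fold lower. Tspo2 passed the filter through the cancer exercise library alone (a mean of 3.21 normalized reads in the other 3), so it had to be higher there, and without it 4 of 18 were higher with exercise in tumor-bearing mice and 3 of 18 in the tumor effect with exercise. Slc25a37 had 1308, 1448, 641 and 4802 reads in the normal control, the normal exercise library, the cancer control and the cancer exercise library, and was 2.997 higher (log2) in the cancer exercise library than in the cancer control. Its relative Slc25a39 was 1.15 higher, and the porphyrin transporter gene Tmem14c was 0.31 higher. Snx3, which helps return the transferrin receptor to the cell surface, was lower at -1.11. Tspo2, an erythroid membrane protein, had 5, 6, 0 and 124 reads and was at least 44.1-fold higher in the cancer exercise library than in the cancer control against the floor of 3 reads.

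Among 14 genes of heme and hemoglobin clearance, 3 were higher and 3 lower in the tumor effect without exercise (median -0.09). In the effect of exercise with tumor 6 were higher and 1 lower (median 0.94), in the tumor effect with exercise 6 were higher (median 0.73), and in the effect of exercise without tumor 1 was higher (median 0.11). Of all tested rows 20.6% were higher and 25.7% lower in the first comparison, so the list was near those shares there. In the effect of exercise with tumor 24.3% were higher and 17.7% lower, and in the tumor effect with exercise 14.9% were higher. In the effect of exercise without tumor 9.98% passed in either direction, so the count of 1 was near that share. Scaled by library totals, 3 rather than 7 of the 14 were past the limit in the effect of exercise with tumor, with a median of 0.34. Spic passed the filter through the normal control alone, and without it the median of the first comparison was 0.29 in place of -0.09. Hp, which encodes the hemoglobin-binding plasma protein haptoglobin, had 4453, 6179, 1143 and 7976 reads in the normal control, the normal exercise library, the cancer control and the cancer exercise library, with differences of -1.59 in the tumor effect without exercise and 2.90 in the effect of exercise with tumor. Cd163, the macrophage receptor for haptoglobin bound to hemoglobin, had 62, 45, 469 and 137 reads. It was highest where the globins were lowest, at 3.27 over the normal control, and 1.68 lower (log2) in the cancer exercise library than in the cancer control. The ferritin genes Fth1 and Ftl1 differed by 0.67 and -0.55 in the tumor effect without exercise and by 0.01 and 0.98 in the effect of exercise with tumor. Slc48a1, a heme transporter, had -1.07 and 0.91.

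Of 12 regulators of globin genes, 8 were higher and 1 lower in the effect of exercise with tumor, with a median of 2.15 (2.09 with Bcl11a, which had 0 reads in the cancer control, at its bound). Tumor without exercise left 1 higher and 4 lower (median -0.36), in the tumor effect with exercise 5 were higher and 3 lower (median 0.34), and in the effect of exercise without tumor 3 were higher and 1 lower (median 0.09). The shares of all tested rows were 24.3% higher and 17.7% lower with exercise in tumor-bearing mice, 20.6% and 25.7% with tumor at rest, 14.9% and 13.0% in the tumor effect with exercise, and 9.98% in either direction with exercise alone, and the counts with tumor at rest were not above these shares by more than 1 gene. Klf1 passed the filter through the cancer exercise library alone, so it had to be higher there. Without it 7 of 11 were higher in the cancer exercise library than in the cancer control (median 1.77). In the tumor effect with exercise 4 of 11 were then higher and 3 lower (median 0.15). Bach1, a repressor that heme inactivates, had 590, 485, 359 and 1153 reads in the normal control, the normal exercise library, the cancer control and the cancer exercise library, and was 1.77 higher in the cancer exercise library than in the cancer control. Bcl11a, a repressor of embryonic globin genes that B cells also express, had 26, 66, 0 and 15 reads. It was at least 5.33-fold higher in the cancer exercise library than in the cancer control against the floor. Ldb1, part of the complex that loops the beta globin locus, was lower at -1.20, and Gata2, Zbtb7a and Klf3 had -0.15, -0.26 and 0.60. The erythroid factors Gata1 and Klf1, named here after their values were seen, had 1, 19, 15 and 163 reads and 5, 1, 5 and 70 reads. Both were thus highest in the cancer exercise library, as the globins were, but their values in the cancer control were not below those of the normal control.

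Red cell membrane genes had 15 of 17 members tested, most at low counts. With tumor at rest 8 were lower and 3 higher (median -1.05, or -0.60 with the 4 genes at 0 reads on 1 side at their bound). These counts include rows near the floor: Rhag was counted as higher with 1 read against 0, Ank1 with 9 against 0, and Kel and Ermap as lower with 0 against 5. In the effect of exercise with tumor 13 were higher (median 3.94), in the tumor effect with exercise 12 were higher (median 3.13), and in the effect of exercise without tumor 2 were higher and 5 lower (median -0.18). Of all tested rows 25.7% were lower and 20.6% higher in the first comparison, 24.3% higher in the second, 14.9% higher in the third and 9.98% past the limit in the last. Rhag, Kel and Ermap passed the filter through the cancer exercise library alone, with means of 0.385, 1.68 and 1.40 normalized reads in the other 3 libraries, so they had to be higher in it. Without them 10 of 12 were higher in the effect of exercise with tumor (median 3.03), 9 of 12 in the tumor effect with exercise (median 2.17), with tumor at rest 6 of 12 were lower and 2 higher, and in the effect of exercise without tumor 3 of 12 were lower and 2 higher. Slc4a1 had 177, 113, 17 and 2326 reads in the normal control, the normal exercise library, the cancer control and the cancer exercise library, which made it 7.11 higher in the cancer exercise library than in the cancer control and 4.70 higher than in the normal exercise library. The exact interval of the first of these differences was 6.51 to 7.97, since the cancer control had 17 reads. Tmod1, an actin-capping protein also made in muscle, had 0.40.

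Genes of late erythroid maturation had 17 of 20 members tested. Tumor without exercise left 9 lower (median -1.07), in the effect of exercise with tumor 11 were higher (median 2.72), in the tumor effect with exercise 11 were higher (median 1.43), and in the effect of exercise without tumor none passed (median 0.07). Of all tested rows 25.7% were lower in the first of these comparisons, 24.3% higher in the second, 14.9% higher in the third and 9.98% past the limit in the last. Bpgm had 1276, 1102, 155 and 3828 reads in the normal control, the normal exercise library, the cancer control and the cancer exercise library, with differences of -2.67, 4.71 and 2.14 in the first 3 of these comparisons. Trim10, an erythroid ubiquitin ligase, had 19, 22, 0 and 142 reads and was at least 50.5-fold higher in the cancer exercise library than in the cancer control against the floor. Mkrn1 and Gpx1, which many cells express, had 2.06 and 0.71 in the effect of exercise with tumor, and Bnip3l and Xpo7 had 0.57 and 0.16.

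**Figure D5:**
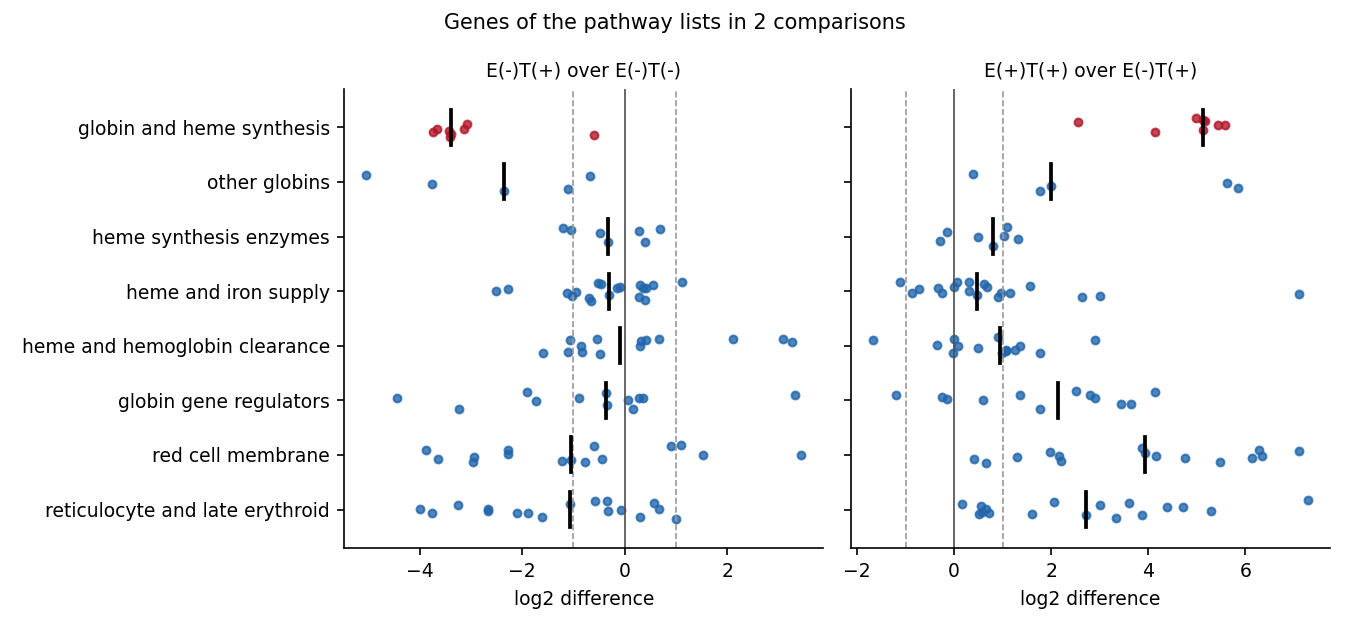
Log2 differences (x axis) of the tested genes of each list (y axis) in 2 comparisons, 1 library against 1 library, with 1 point for each gene and a black bar at the median. Dashed lines mark the 2-fold limit, and a gene with 0 reads in 1 library is drawn at its deposited value. In E(+)T(+) over E(-)T(+) the medians are 5.12 for the globin and heme synthesis genes, 3.94 for red cell membrane genes and 0.81 for the other heme enzymes.

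By distance between centred log2 profiles over the 4 libraries, the 10 rows most like the mean of the 8 genes, out of 11208 rows with a mean normalized count of at least 50, included 6330407A03Rik, Bpgm, Slc6a4, Slc6a2, P2ry10, Car2, Cox6b2 and Fam46c. Their distances ran from 0.385 to 0.889 log2 units. 6330407A03Rik had 64, 87, 7 and 192 reads in the normal control, the normal exercise library, the cancer control and the cancer exercise library, and Slc6a4, the serotonin transporter gene, had 121, 142, 18 and 327. With 4 points a profile has few ways to differ, and the likeness is a description.

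Markers of other cells moved in the same comparisons. Of all tested rows 25.7% were lower and 20.6% higher with tumor at rest, 24.3% higher and 17.7% lower with exercise in tumor-bearing mice, and 14.9% higher and 13.0% lower in the tumor effect with exercise. In the tumor effect without exercise all 9 alveolar epithelium markers and all 7 endothelium markers were lower past the limit (medians -2.58 and -3.54), and in the effect of exercise with tumor all 9 and all 7 were higher (2.55 and 2.96). Airway secretory markers had 2 of 4 lower and 1 higher in the first and 2 of 4 higher and 1 lower in the second. Where the tumor effect was taken with exercise and the globin and heme synthesis genes were higher, 2 of 9 alveolar, 3 of 7 endothelium and 1 of 4 airway markers were lower and none was higher, and the lower alveolar and airway counts lay within 1 gene of the share of all rows. Summed normalized read counts of the endothelium list were 30047, 29986, 2473 and 18561 in the normal control, the normal exercise library, the cancer control and the cancer exercise library, and those of the alveolar list were 227651, 277271, 32929 and 184754. The airway list summed to 475554, 573662, 151978 and 561934. Both the summed endothelium and alveolar levels were thus lowest in the library where the globins were lowest, and their part in the result was not tested.

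Summed blood cell markers were highest in the cancer exercise library. The 9 neutrophil markers tested summed to 3813, 11842, 10808 and 199675 normalized reads in the normal control, the normal exercise library, the cancer control and the cancer exercise library, and the 8 megakaryocyte and platelet markers to 2549, 4528, 6470 and 29506. Where globins were lower, in the tumor effect without exercise, 8 of 9 neutrophil and 3 of 8 platelet markers were higher, and in the effect of exercise with tumor 8 of 9 and 8 of 8 were. The tumor effect with exercise had 9 of 9 and 8 of 8 higher. These counts stand beside 20.6%, 24.3% and 14.9% of all tested rows higher. In the effect of exercise without tumor 7 of 9 neutrophil markers were past the limit, 6 higher and 1 lower (median 1.61). The lower one, Prtn3, had 9 reads in the normal control and 3 in the normal exercise library. Mpo, counted as higher, had 1 and 3. In that comparison 2 of 8 platelet markers (median 0.89) and 4 of 10 cell division markers (median 0.95) were higher, and 9.98% of all tested rows passed in either direction. Elane had 0 reads in both libraries without tumor, and it passed the filter through the cancer exercise library alone. Without it 7 of 8 neutrophil markers were higher with tumor at rest, 7 of 8 in the effect of exercise with tumor and 8 of 8 in the tumor effect with exercise. The 10 cell division markers summed to 545, 983, 11847 and 3934, so that the cancer control was highest, and 10 of 10 were higher in the tumor effect without exercise and 9 of 10 lower in the effect of exercise with tumor, where 17.7% of all tested rows were lower. Bub1 had 0 reads in the normal control. The part of these cells in the result was not tested.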

How the data were processed

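Lung mRNA of 4 libraries, 1 per group, was made into QuantSeq 3' libraries by the authors and sequenced as single 75-base reads, so that a read marks a transcript end and levels were not divided by length. Per the labels, the reads were aligned to mm10 with Bowtie2 and counted with bedtools. The deposited values are log2(normalized read count + 1), for 23282 rows. Their form was matched by a quantile adjustment of counts under a negative binomial model, with a fitted dispersion of 0.372. Inverting it gave whole reads: all values came back within 0.001 (log2), and 94.6% were resolved to 1 read. Recovered globin reads carry a rounding error of up to 0.0347%. The recovery was tested on simulated data. Differences are of deposited log2 values, and exact (Clopper-Pearson) intervals and Wilson intervals are at 95% and cover counting error only. Rows with a mean normalized read count of at least 4 were compared at a 2-fold limit. The study gives the same limits for fold and count, but does not say over which libraries the count was taken, and the mean over all libraries was chosen here. With 1 library per group no test was run, so no p-value is given.

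The genes and lists were chosen with earlier results of these data known. All 9 symbols were named, and in each list up to 4 genes of highest mean count plus the largest and smallest difference in the cancer exercise library over the cancer control. Some genes that this rule names are not reported here. Lists covered other globins, heme synthesis enzymes, heme and iron supply, clearance, globin gene regulators, red cell membrane, late erythroid maturation, and markers of neutrophils, platelets, alveolar epithelium, airway secretory cells, endothelium and cell division. Promoter windows were RefSeq entries of GRCm38.p6, matched by symbol for 5 of the genes. Transcripts for shared 75-base windows were those of GENCODE M21. Alternatives were other scalings, pseudocounts of 4 and 0.25, limits of 1.5 and 4-fold, other filters, and shares without Rn45s or without Hbb-b1 and Hbb-b2. Python 3.11.15, numpy 2.4.6, scipy 1.17.1, pandas 2.3.3 and matplotlib 3.10.9 were used.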

Additional observations from a re-analysis of the deposited data

Results flagged for a closer look

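On the deposited log2 values, the tumor effect had opposite signs at rest and with exercise for 7 of the 8 genes, past the 2-fold limit both times. The share of all tested rows that were lower at rest and higher with exercise in this way was 1.93%. The tumor effect with exercise minus that without was 4.99 (log2) for Hba-a1, 4.29 for Hba-a2, 4.92 for Hbb-bs, 5.35 for Hbb-bt, 4.94 for Hbb-b1, 5.49 for Hbb-b2 and 5.06 for Alas2. Hba-a1, for example, was -3.43 at rest and 1.56 with exercise. Fech did not meet the limit at rest. Under scaling by library totals Hba-a2 did not meet it with exercise, at 0.81. With 1 library per group the difference was not tested.

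Deposited values of 5 other genes of the lists gave tumor effects of opposite sign as well, and the difference was 4.81 for Bpgm, 6.46 for Hbq1b, 7.64 for Slc4a1, 6.98 for Trim10 and 6.77 for Tspo2. Trim10 and Tspo2 had 0 reads in the cancer control, so that 6.98 and 6.77 depend on the added count of 1 and are no bounds. Against a floor of 3 reads in the cancer control, Trim10 was at least 4.91-fold lower there than in the normal control, and Tspo2, with 5 reads in the normal control, at least 1.29-fold lower, which does not reach the 2-fold limit. Tspo2 also passed the filter on low values through the cancer exercise library alone, so its higher value there was fixed by the filter. These differences were not tested either, and they all rest on the cancer control and the cancer exercise library, each a single library.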

How the results depend on the processing

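No paired analysis was possible because each group held 1 library, and for the same reason no library could be left out of a group. No difference past the limit changed direction under another setting. Of the single differences of the 8 genes under other settings, 89 lay outside the counting interval of the reported value and 111 within it. Of the list medians 59 shifted by more than 0.25 and 431 did not, and of the list counts 17 changed by over 1.5 times and 473 did not. Of all rows tested, 669 (4.41%) passed the filter through 1 library alone, none of them among the 8 genes. Leaving these out, an alternative chosen after seeing the data, changed no list count by over 1.5 times when both directions were counted together. A count in 1 direction could change by more, as for red cell membrane genes lower in the effect of exercise without tumor, given above. Scaling by library totals alone moved the median of all tested rows to -0.59 in the effect of exercise with tumor, -0.41 in the tumor effect with exercise and -0.52 in the cancer exercise library over the normal control. Totals without the 6 hemoglobin symbols moved it to -0.13 in the tumor effect without exercise and -0.20 in the cancer exercise library over the normal control. Under library totals the 8 genes had differences of 0.57 to 1.48 in the cancer exercise library over the normal control, with 7 past the limit. At a 4-fold limit 1 gene (Fech) was left in the tumor effect with exercise and 0 in the cancer exercise library over the normal control.

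Without the filter 2606 rows were past the limit in the effect of exercise without tumor. With a mean count of at least 100 there were 200 in that comparison, 3601 in the tumor effect without exercise, 3171 in the effect of exercise with tumor, 1686 in the tumor effect with exercise and 1828 in the cancer exercise library over the normal control. Without Rn45s in the total, the 6 hemoglobin symbols held 15.5%, 15.1%, 1.501% and 33.2% of the reads in the normal control, the normal exercise library, the cancer control and the cancer exercise library. Without Hbb-b1 and Hbb-b2, chosen after seeing the data, the shares were 11.8%, 11.5%, 1.16% and 26.4%. Other than the construction of these settings, the cause was not tested. Depth limits genes such as Tspo2, Trim10 and the theta globin Hbq1a, which had 0 reads in the cancer control, but not the 6 hemoglobin symbols. Whether the spread between mice is as large as these differences cannot be told from 1 library per group.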
